A study of Mus musculus with 9 samples.

Results

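Acod1, Nos2, Arg1, Arg2, Ass1, Slc7a2, Odc1 and Sat1 encode enzymes and a transporter that make itaconate and nitric oxide or that carry arginine towards ornithine and the polyamines. They were taken by symbol from the deposited expression table, where each symbol occurs once, and are 8 of its 52381 genes. RNA was sequenced from the lungs of 9 mice, in all of which lipopolysaccharide (LPS), a part of the outer wall of bacteria, had caused acute lung injury (ALI). The TMAO lungs came from 5 injured mice that were also treated with trimethylamine N-oxide (TMAO), a metabolite formed from gut bacterial products, and the LPS-ALI lungs came from 4 injured mice without it. The comparison addresses what TMAO does in the injured lung. Each library is from 1 numbered mouse. The strain, genotype, sex and age of the mice, and the doses, routes and times of LPS and TMAO, are not stated in the labels, and lungs without LPS are not analysed here. Whole lung was used, so the values mix all of its cell types.

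The genes work around 2 small molecules. Acod1 (also called Irg1) takes cis-aconitate out of the citric acid cycle and turns it into itaconate, which slows succinate dehydrogenase and switches on the antioxidant factor Nrf2. In macrophages LPS is a strong inducer of it. Arginine is brought into cells by transporters such as Slc7a2, is rebuilt from citrulline by Ass1 together with Asl, and is then split between competing enzymes. Nos2, the inducible nitric oxide synthase, turns it into nitric oxide and citrulline, while the cytosolic Arg1 and the mitochondrial Arg2 turn it into ornithine and urea. Odc1 makes the polyamine putrescine from ornithine, and Sat1 acetylates the longer polyamines so that they can be broken down or exported. In mouse macrophages Nos2 is widely used as a mark of LPS or interferon-gamma stimulation and Arg1 as a mark of interleukin-4 stimulation.

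The promoters of Acod1 and Odc1 are shown because these genes open the itaconate branch and the polyamine branch. They are RefSeq windows on GRCm38.p6 that run from 250 bases before to 50 bases after the start that RefSeq gives, which is not the GENCODE start used for the gene positions further on, both on the plus strand, at chr14:103046762-103047061 for Acod1 and chr12:17544623-17544922 for Odc1. Of the 8 genes, 4 matched an entry of the promoter table, namely Acod1, Odc1, Ass1 and Sat1. Capitals mark the match to GGGNNNNNCC, a loose form of the site bound by NF-kB, a transcription factor that LPS activates.
Acod1 promoter: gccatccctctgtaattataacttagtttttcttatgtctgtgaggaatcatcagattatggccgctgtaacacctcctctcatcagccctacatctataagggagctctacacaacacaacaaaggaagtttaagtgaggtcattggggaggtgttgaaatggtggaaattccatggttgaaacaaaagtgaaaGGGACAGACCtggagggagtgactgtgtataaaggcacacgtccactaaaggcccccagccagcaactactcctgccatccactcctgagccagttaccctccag
Odc1 promoter: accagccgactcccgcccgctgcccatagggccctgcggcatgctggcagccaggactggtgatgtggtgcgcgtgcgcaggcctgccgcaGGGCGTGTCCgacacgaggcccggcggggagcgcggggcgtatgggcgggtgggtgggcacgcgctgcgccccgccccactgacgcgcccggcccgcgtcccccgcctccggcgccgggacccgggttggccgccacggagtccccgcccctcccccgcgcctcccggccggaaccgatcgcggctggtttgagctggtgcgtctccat
Counted from the RefSeq start, the match lies at -55 to -46 in Acod1 and at -159 to -150 in Odc1. Both strands were searched, and 50.8% of the 32851 promoters of this length in the table hold the pattern, so a match describes the letters only. Neither window held GAAANNGAAA (an interferon response pattern, in 3.44% of promoters), TTCNNNGAA (a STAT pattern, in 8.3%) or CACGTG (the E-box that Myc binds, in 7.15%). The Ass1 window held 6 matches to the NF-kB pattern, among which 2 pairs overlap on opposite strands, and 1 CACGTG. The Sat1 window held no match to any of the 4 patterns.

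Levels are given in FPKM, in which the fragments of a gene are divided by its length and by the depth of the library, so that genes can be set beside each other. The spacing of the lowest values gave estimated depths of 5370000 to 9780000 counted fragments in TMAO libraries and 7040000 to 14500000 in LPS-ALI libraries, with TMAO replicate 5 the shallowest. That library also had the fewest genes above 0 (15527, against up to 19196), and 3.79% of the tested genes were listed at 0 in it, against at most 0.694% in any other library. LPS-ALI replicate 4 stood apart in markers of other cells. The 6 erythroid markers summed to 124 to 291 FPKM in TMAO lungs, against 2326 FPKM in LPS-ALI replicate 4 and 210.8 to 240.3 FPKM in the other LPS-ALI lungs. The 8 alveolar type 2 markers summed to 4797 to 10560 FPKM in TMAO lungs, against 1106 FPKM in LPS-ALI replicate 4 and 7549 to 14170 FPKM in the others. The labels name lung while the wording of the extraction protocol names platelets. Alveolar type 2 markers were detected in every library, and the 7 platelet markers summed to 19.2 to 27.9 FPKM in TMAO lungs and 31.9 to 76.3 FPKM in LPS-ALI lungs. Summed lymphocyte markers also separated the groups. Sums of 9 T and NK cell markers were 9.39 to 18.3 FPKM in TMAO lungs and 25.0 to 58.2 FPKM in LPS-ALI lungs. Gzma was the largest part, at 6.92 to 12.99 FPKM in TMAO lungs and 18.07 to 39.45 FPKM in LPS-ALI lungs. By themselves only Gzma and Klrb1c separated the groups, while the others, Cd4 and Cd3g among them, overlapped or touched. Only 3 of the 9 were high enough to be tested, and Cd3d, Cd8a, Nkg7 and Ncr1 were at 0 in some libraries. The 7 B and plasma cell markers summed to 1.52 to 4.29 FPKM in TMAO lungs and 5.53 to 10 FPKM in LPS-ALI lungs, with Cd79a among those at 0 in some. The part of these cells in the results was not tested.

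Among the 8 genes, all had a lower mean FPKM in TMAO lungs than in LPS-ALI lungs, and none passed the test. The difference was taken as TMAO minus LPS-ALI on log2(FPKM + 1), a scale that understates the change of low genes, and was tested with limma over the 11817 genes with at least 1 FPKM in at least 4 libraries, which 7 of the 8 passed. With limma and Benjamini-Hochberg adjustment each of the 7 had an adjusted p of 0.998, and 0 of the 11817 genes (0.0%) passed 0.05. At an unadjusted p under 0.05 there were 396 genes (3.35%), of which 346 were lower (2.93%) and 50 higher in TMAO lungs, and 2 of the 7 genes, Odc1 and Arg1, were among the lower ones. The groups did not overlap in 0 of the 8 genes, against 1.48% of all tested genes in either direction and 1.36% lower in TMAO lungs. The median tested gene itself differed by -0.17 and 72.1% of tested genes lay below 0, so differences are also given relative to that gene. All 7 tested genes lay below it, as 50.0% of genes do by construction, and their median difference was -0.55, or -0.38 relative to it. The 5 mice against 4 allow no exact permutation p below 0.00794.

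**Figure D1:**
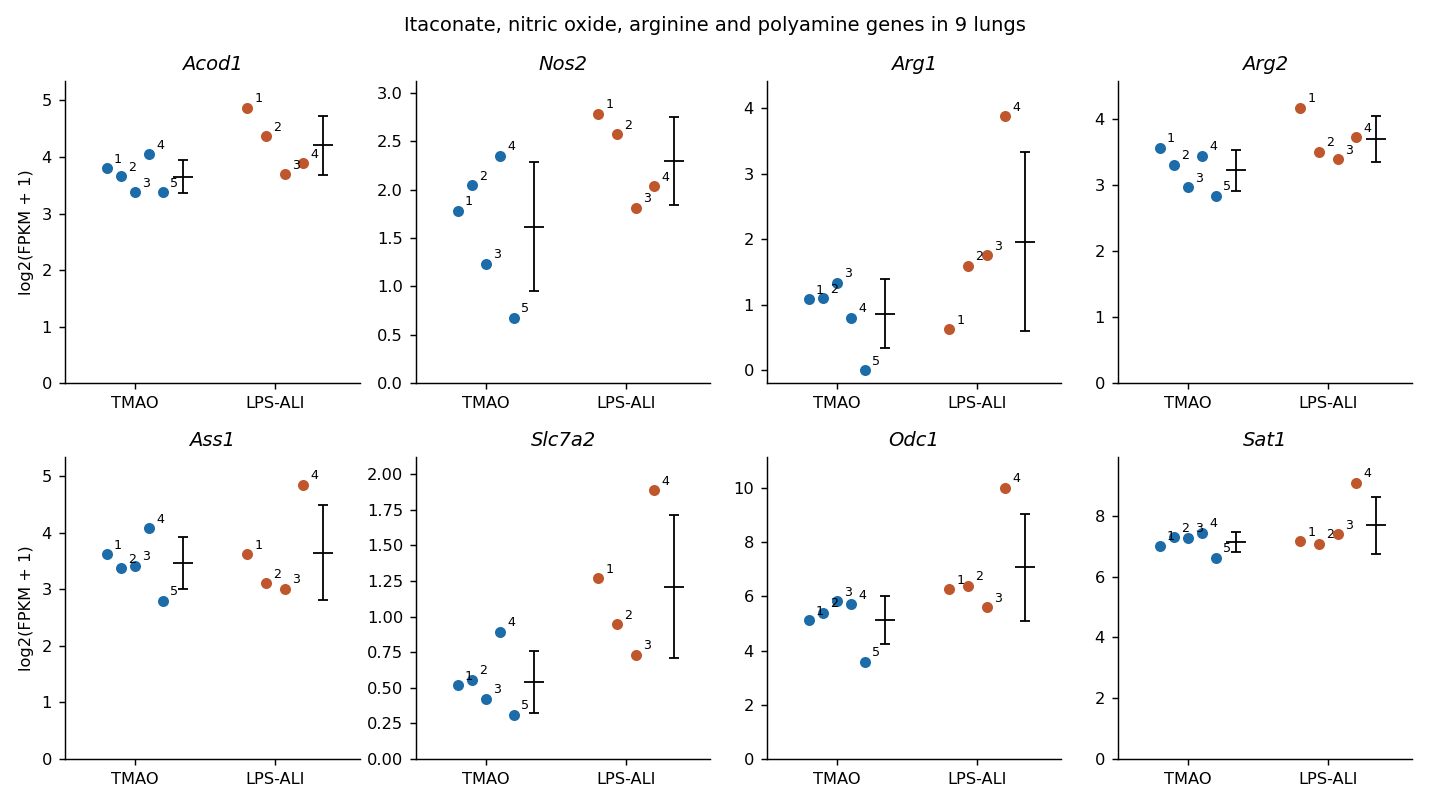
Log2(FPKM + 1) of the 8 genes in 5 TMAO libraries (left) and 4 LPS-ALI libraries (right), 1 numbered point per mouse, with the group mean and SD as a cross bar and whiskers. The points of the groups overlap for every gene, and LPS-ALI replicate 4 lies far above the rest for Odc1 (1030 FPKM) and Sat1 (544 FPKM).

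In TMAO lungs the order of the length-corrected levels was Sat1 (142 ± 29.9 FPKM), Odc1 (38.5 ± 17.5), Acod1 (11.8 ± 2.60), Ass1 (10.5 ± 3.64), Arg2 (8.51 ± 1.99), Nos2 (2.32 ± 1.39) and Slc7a2 (0.468 ± 0.236, SD, n = 5), with Arg1 between Nos2 and Slc7a2. Acod1 and Ass1, and Ass1 and Arg2, are neighbours whose means differ by less than their SDs. In LPS-ALI lungs the means were 247 ± 198 FPKM for Sat1, 309 ± 481 for Odc1, 18.4 ± 7.33 for Acod1, 13.4 ± 9.73 for Ass1, 12.2 ± 3.34 for Arg2, 4.11 ± 1.58 for Nos2 and 1.43 ± 0.905 for Slc7a2 (SD, n = 4). There too Acod1 and Ass1, Ass1 and Arg2, and Odc1 and Sat1 differ by less than their SDs, and Odc1 stood above Sat1 in LPS-ALI replicate 4 only. Arg1 averaged 4.665 ± 6.08 FPKM in LPS-ALI lungs (SD), above the mean of Nos2, with 13.70 FPKM in LPS-ALI replicate 4. In every library Arg2 was above Nos2, and Acod1 was above Arg2.

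Acod1, the itaconate enzyme (ENSMUSG00000022126, chr14:103046977-103056573, plus strand, GRCm38), was lower in TMAO lungs on average, within the spread between mice. It had 12.97, 11.61, 9.41, 15.57 and 9.40 FPKM in TMAO lungs and 28.29, 19.66, 12 and 13.83 FPKM in LPS-ALI lungs. LPS-ALI replicates 1 and 2 were above every TMAO lung, while replicates 3 and 4 lay inside the TMAO range. The log2 difference was -0.55 ± 0.35 (SE, 95% interval -1.30 to 0.19), or -0.38 relative to the median gene, with an exact permutation p of 0.0873 over the 9 lungs. Leaving out LPS-ALI replicate 1, its highest lung, gave -0.33, or -0.20 relative to the median gene, and an exact permutation p of 0.179. Without the LPS-ALI libraries whose codes begin with X (replicates 3 and 4, a code the labels do not explain), the relative difference was -0.75 and the exact permutation p 0.0476, the smallest that 5 lungs against 2 allow. In whole lung, fewer cells that express a gene and less of its RNA per cell cannot be told apart.

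Nos2, the inducible nitric oxide synthase (ENSMUSG00000020826, chr11:78920787-78960254, plus strand), followed a similar order of lungs at a lower level. It had 2.44, 3.12, 1.35, 4.10 and 0.60 FPKM in TMAO lungs and 5.89, 4.94, 2.51 and 3.09 FPKM in LPS-ALI lungs. LPS-ALI replicates 1 and 2 were again the highest, TMAO replicate 5 was the lowest at an estimated 13.5 fragments, and TMAO replicates 2 and 4 were inside the LPS-ALI range. On the log2 scale the difference was -0.68 ± 0.39 (SE), or -0.51 relative to the median gene, with an exact permutation p of 0.127. When each library was first centred on its own median gene, the groups no longer overlapped. The centred log2 values were then -0.962, -0.979, -1.62, -0.996 and -1.06 in TMAO lungs and -0.255, -0.307, -0.956 and -0.944 in LPS-ALI lungs, with an exact permutation p of 0.00794, the smallest that 9 lungs allow. The exact permutation p was 0.0476 under median-of-ratios scaling, 0.0556 under quantile scaling and 0.206 after rescaling to TPM. With mitochondrial, haemoglobin and small RNA genes removed it was 0.222 by exact permutation. Leaving out single libraries gave 0.0857 to 0.25 by exact permutation, and the log2 difference was -0.45 without TMAO replicate 5. On the centred scale the gap between the nearest lungs was small, 3.42% of tested genes were separated and 1.7% with TMAO lungs lower, and limma gave Nos2 an adjusted p of 0.690 on it. Nos2 was the 1 gene of the 7 tested whose groups parted on the centred scale.

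Markers of the cells in which LPS is known to induce Acod1 and Nos2 moved beside them in part. The 10 neutrophil markers summed to 9847, 12520, 7844, 12940 and 14790 FPKM in TMAO lungs and to 21120, 16840, 14050 and 7874 FPKM in LPS-ALI lungs. LPS-ALI replicates 1 and 2, the highest for Acod1 and Nos2, were also the highest for this sum, which is mostly S100a8 and S100a9. S100a8, S100a9, Ngp and Camp were each highest in these lungs, and Mmp8 in LPS-ALI replicate 1. Csf3r and Cxcr2 were highest in TMAO replicate 2, Mmp9 in TMAO replicate 4, Retnlg in TMAO replicate 5 and Ly6g in LPS-ALI replicate 4. The 10 monocyte and interstitial macrophage markers summed to 77.1 to 163.4 FPKM in TMAO lungs and 148 to 176 FPKM in LPS-ALI lungs. The 10 alveolar macrophage markers summed to 94.7 to 278 FPKM in TMAO lungs and 226 to 442 FPKM in LPS-ALI lungs, with Fabp1 at 0 in some libraries and none of the other 29 markers of these 3 lists at 0 in any. Both macrophage sums were highest in LPS-ALI replicate 4 (176.4 and 441.7 FPKM), where Acod1 and Nos2 were not the highest. In LPS-ALI replicate 1, the highest for Acod1 and Nos2, the alveolar macrophage sum was 225.5 FPKM, below TMAO replicates 1 to 4. The part of these cells in the differences was not tested.

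Slc7a2, a cationic amino acid transporter that supplies arginine (ENSMUSG00000031596, chr8:40862396-40922308, plus strand), had the lowest mean of the 8 genes. It had 0.43, 0.47, 0.34, 0.86 and 0.24 FPKM in TMAO lungs and 1.41, 0.93, 0.66 and 2.70 FPKM in LPS-ALI lungs. LPS-ALI lungs were above TMAO lungs in all pairs except that TMAO replicate 4 exceeded LPS-ALI replicate 3. Only 2 libraries reached 1 FPKM, so Slc7a2 was not among the genes tested. Its log2 difference was -0.67, or -0.50 relative to the median gene, with an exact permutation p of 0.0238, unadjusted and 1 of 8 such tests. The exact permutation p was 0.159 after centring on the median gene, 0.0536 without LPS-ALI replicate 4 (log2 difference -0.44) and 0.0571 without TMAO replicate 1, 2, 3 or 5. Under median-of-ratios scaling it was 0.00794. An antisense noncoding gene, Gm26584, overlaps it, and no source used here gives the strand setting of the counting, so its count is uncertain.

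Ass1, which joins citrulline to aspartate on the way back to arginine (ENSMUSG00000076441, chr2:31470207-31520672, plus strand), did not differ beyond the spread between mice. It had 11.29, 9.38, 9.69, 15.96 and 5.97 FPKM in TMAO lungs and 11.31, 7.62, 7.04 and 27.75 FPKM in LPS-ALI lungs. LPS-ALI replicate 4 was the highest library and replicates 2 and 3 were below 4 of the 5 TMAO lungs. Its log2 difference was -0.19 ± 0.42 (SE), or -0.02 relative to the median gene, with an exact permutation p of 0.714. Without LPS-ALI replicate 4 its sign turned, to 0.21, or 0.35 relative to the median gene. Under median-of-ratios and quantile scaling the difference was 0.03 and 0.05. A near-identical gene, Gm5424, reached at most 0.1 FPKM.

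Arg1, the cytosolic arginase (ENSMUSG00000019987, chr10:24915221-24927484, minus strand), was scarce in every lung but 1. It had 1.13, 1.15, 1.53 and 0.75 FPKM in TMAO replicates 1 to 4 and was listed at 0 in replicate 5, where 3 fragments would have given 0.277 FPKM. LPS-ALI lungs had 0.55, 2.02, 2.39 and 13.70 FPKM. LPS-ALI replicate 4 held 5.73 times the next highest LPS-ALI lung, LPS-ALI replicate 1 was below 4 of the 5 TMAO lungs, and estimated fragments outside replicate 4 were 0 to 69.7. The log2 difference was -1.10 ± 0.51 (SE), or -0.93 relative to the median gene, with an unadjusted limma p of 0.0482, an adjusted p of 0.998 and an exact permutation p of 0.103. Leaving out LPS-ALI replicate 1 gave -1.54 and an exact permutation p of 0.0179. Leaving out LPS-ALI replicate 4 gave -0.46 and an exact permutation p of 0.321, and without both X-coded LPS-ALI libraries it was -0.03 relative to the median gene.

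Arg2, the mitochondrial arginase (ENSMUSG00000021125, chr12:79130777-79156301, plus strand), was the more abundant arginase in every lung except LPS-ALI replicate 4. It had 10.82, 8.90, 6.81, 9.87 and 6.13 FPKM in TMAO lungs and 16.96, 10.34, 9.47 and 12.18 FPKM in LPS-ALI lungs. LPS-ALI replicate 1 was the highest, TMAO replicates 3 and 5 were the lowest, and the groups overlapped through TMAO replicates 1 and 4. On the log2 scale the difference was -0.47 ± 0.34 (SE), or -0.30 relative to the median gene, with an exact permutation p of 0.0794. Leaving out LPS-ALI replicate 1 gave -0.31, or -0.18 relative to the median gene, and an exact permutation p of 0.179, and leaving out LPS-ALI replicate 4 gave -0.33 relative to the median gene. Arg2 shares 285 bases with Vti1b on the opposite strand, which reached 108 FPKM in TMAO lungs and 145 FPKM in LPS-ALI lungs, so its count is uncertain.

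Odc1, the first enzyme of polyamine synthesis (ENSMUSG00000011179, chr12:17544794-17551505, plus strand), showed the widest difference of the 8 genes, and 1 LPS-ALI lung held much of it. It had 34.02, 41.06, 55.48, 51.10 and 11.02 FPKM in TMAO lungs and 75.90, 83.20, 47.64 and 1030.41 FPKM in LPS-ALI lungs. LPS-ALI replicates 1, 2 and 4 were above every TMAO lung, and LPS-ALI replicate 3 lay between TMAO replicates. LPS-ALI replicate 4 held 12.4 times the next highest LPS-ALI lung, and the other 3 LPS-ALI lungs averaged 68.9 ± 18.8 FPKM (SD). The log2 difference was -1.94 ± 0.72 (SE, 95% interval -3.49 to -0.40), or -1.77 relative to the median gene, with an unadjusted limma p of 0.0171, an adjusted p of 0.998 and an exact permutation p of 0.0238. Without LPS-ALI replicate 4 the difference was -0.96 ± 0.47, or -0.83 relative to the median gene, with an exact permutation p of 0.143. Leaving out any single library other than LPS-ALI replicate 3 took the exact permutation p above 0.05, over a range of 0.0179 to 0.143, and without TMAO replicate 5 the difference was -1.56. The 7 near-identical copies of Odc1 reached at most 1.34 FPKM in TMAO lungs and 1.65 FPKM in LPS-ALI lungs.

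Sat1, which marks spermidine and spermine for breakdown (ENSMUSG00000025283, chrX:155213132-155216449, minus strand), was the most abundant of the 8 in every TMAO lung. It had 128.29, 156.08, 155.00, 174.19 and 97.33 FPKM in TMAO lungs and 142.90, 135.35, 167.73 and 543.80 FPKM in LPS-ALI lungs. LPS-ALI replicate 4 was again far above the rest, and the other 3 LPS-ALI lungs lay within the TMAO range. Its log2 difference was -0.55 ± 0.40 (SE), or -0.38 relative to the median gene, with an exact permutation p of 0.286. Without LPS-ALI replicate 4 it was -0.09, or 0.05 relative to the median gene.

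**Figure D2:**
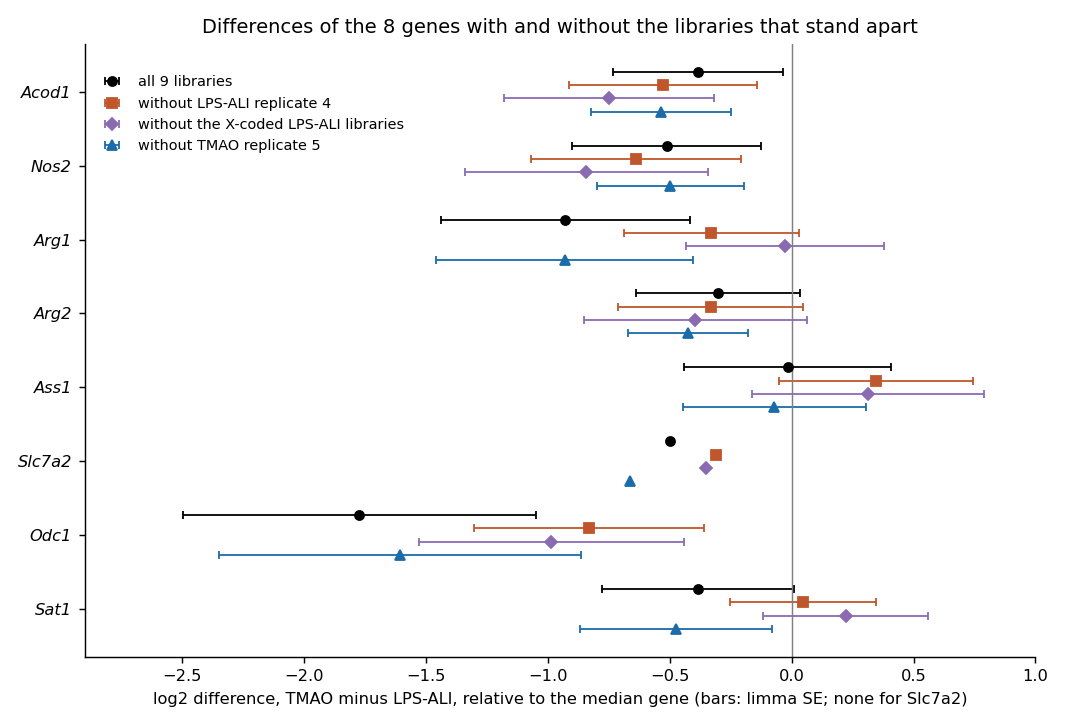
Log2 difference, TMAO minus LPS-ALI, of each of the 8 genes relative to the median tested gene, with all 9 libraries and with libraries left out. Whiskers are limma's SE, which Slc7a2 lacks because it was not tested. Odc1 lay at -1.77 with all libraries and at -0.83 without LPS-ALI replicate 4, while Acod1 lay at -0.38 with all libraries and at -0.53 without LPS-ALI replicate 4. Leaving out LPS-ALI replicate 1, which is not drawn, gave -0.20 for Acod1 and -0.39 for Nos2.

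LPS-ALI replicate 4 divided the 8 genes. Relative to the highest of the other LPS-ALI lungs it held 12.4 times as much Odc1, 5.73 times Arg1, 3.24 times Sat1, 2.45 times Ass1 and 1.92 times Slc7a2. It held only 0.718 times as much Arg2, 0.525 times Nos2 and 0.489 times Acod1. In the log2 step from the median of the other 3 LPS-ALI lungs to replicate 4, Odc1 exceeded 99.83% of tested genes, Arg1 98.7%, Sat1 97.8% and Ass1 97.2%, whereas Nos2 exceeded 19.1% and Acod1 21.3%. Without this library the log2 differences of 6 of the 8 genes still lay below the median gene, with Ass1 and Sat1 above it. All 8 genes were lowest in TMAO replicate 5, the shallowest library, although FPKM is already divided by depth. Its median tested gene was at 1.74 on the log2 scale, against 2.74 to 3.35 in the other libraries. Mitochondrial genes held 52.16% of its summed FPKM, against 33.39% to 49.31% in the other libraries. What sets this library apart was not tested. With each library centred on its median tested gene, TMAO replicate 5 was instead the highest TMAO lung for Acod1, Arg2, Ass1, Slc7a2 and Sat1.

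The ratio of 2 genes within a library does not move with how the library is scaled. Nos2 over Arg1 was 2.16, 2.71, 0.882 and 5.47 in TMAO replicates 1 to 4 and 10.7, 2.45, 1.05 and 0.226 in LPS-ALI lungs. TMAO replicate 5 gave no such ratio because Arg1 was listed at 0 in it. Among the lungs with a ratio, LPS-ALI lungs held both the highest and the lowest. The highest rested on an estimated 7.8 fragments of Arg1 in LPS-ALI replicate 1. Acod1 over Nos2 was 3.72 to 15.7 in TMAO lungs and 3.98 to 4.80 in LPS-ALI lungs. TMAO replicate 5 was the highest, with an estimated 13.5 fragments of Nos2. Odc1 over Sat1 was 0.265, 0.263, 0.358, 0.293 and 0.113 in TMAO lungs and 0.531, 0.615, 0.284 and 1.90 in LPS-ALI lungs, so that 3 of the 4 LPS-ALI lungs were above every TMAO lung. The mean log2 ratio of Odc1 over Sat1 differed by -1.42 (TMAO minus LPS-ALI), or by -0.90 without LPS-ALI replicate 4, which was not tested.

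Across the 9 libraries the genes fell into pairs and groups by how they varied, and these changed without LPS-ALI replicate 4. As a description over libraries that share depth and tissue makeup, Pearson's r of log2(FPKM + 1) was 0.884 between Acod1 and Nos2 and 0.880 between Acod1 and Arg2. Without LPS-ALI replicate 4 these were 0.886 and 0.917. Another group was formed by Odc1 with Sat1 (0.941), Arg1 with Sat1 (0.926) and Arg1 with Odc1 (0.921). In the same order these were 0.703, 0.632 and 0.659 without LPS-ALI replicate 4. Over all 9 libraries r was also 0.914 between Slc7a2 and Odc1 and 0.859 between Ass1 and Sat1. Without LPS-ALI replicate 4, Odc1 had a higher r with Nos2 (0.822) and Slc7a2 (0.741) than with Sat1 or Arg1. Its r with Acod1 was then 0.659. Acod1 and Arg1 had an r of 0.00557. Acod1 and Slc7a2 had an r of 0.572 with all libraries and 0.958 without LPS-ALI replicate 4.

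**Figure D3:**
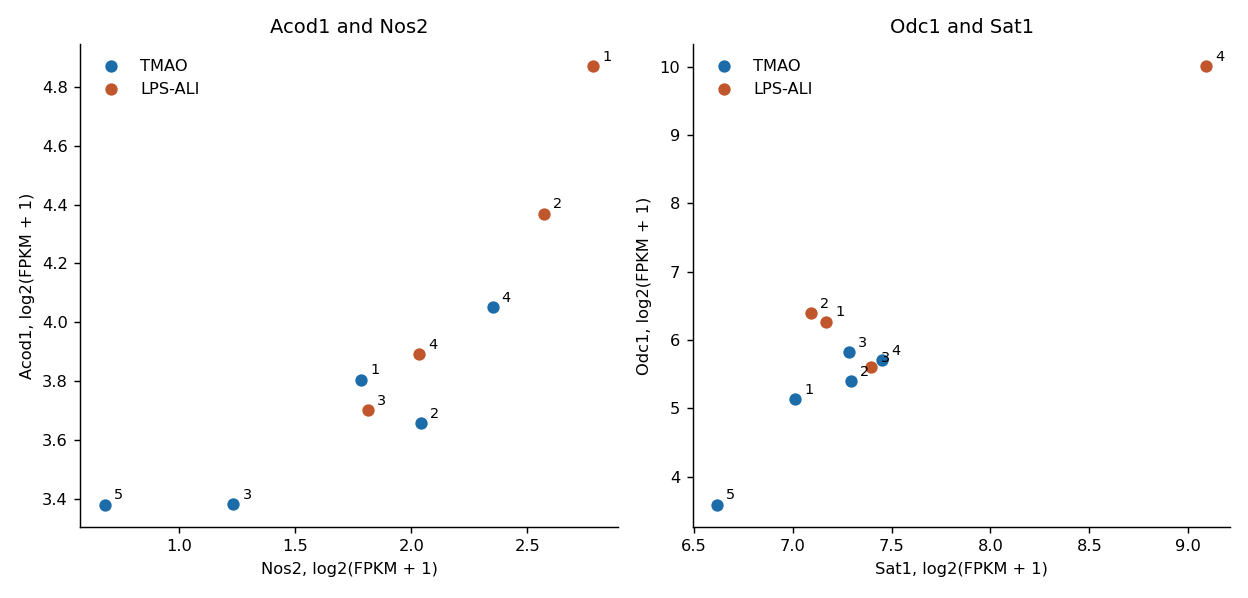
Log2(FPKM + 1) of Acod1 (vertical) against Nos2 (horizontal), and of Odc1 (vertical) against Sat1 (horizontal), 1 numbered point per library. LPS-ALI replicates 1 and 2 are highest for both Acod1 and Nos2, and LPS-ALI replicate 4 sits alone at the upper right for Odc1 and Sat1.

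The tested genes whose pattern over the 9 libraries was most like that of each gene were named by the highest r. For Acod1 this was Tnfaip8 (0.956), a TNF-inducible gene, and for Nos2 it was Ebi3 (0.988), a cytokine subunit shared by interleukins of the IL-12 family. For Odc1 it was Hmga1 (0.985), an architectural chromatin protein, followed by H3f3b (0.983) and AA467197 (0.980). For Arg1, Timm10 (0.974), an import chaperone of mitochondria, was followed by Ptges (0.972), a prostaglandin E synthase. Mmaa (0.964) came first for Arg2, Acyp2 (0.994) for Ass1, Mthfsl (0.978) for Slc7a2 and Pigyl (0.990) for Sat1. Without LPS-ALI replicate 4 the r of Ebi3 with Nos2 was 0.989, that of Hmga1 with Odc1 was 0.935 and that of Ptges with Arg1 was 0.882. The genes were picked from the tested genes by their r over these same libraries, so high values follow from the choice and test nothing.

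The rest of the pathway was taken from 10 lists that hold 114 genes besides the 8, of which 95 were tested. None passed the adjusted threshold with limma, 8 had an unadjusted p under 0.05, all lower in TMAO lungs, against 3.35% of all tested genes and 2.93% lower. The groups did not overlap in 3, all lower, against 1.48% of all tested genes and 1.36% lower. Of the 95, 78 lay below 0, as did 72.1% of all tested genes, and 63 below the median gene, with a median difference of -0.25, or -0.08 relative to the median gene.

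**Figure D4:**
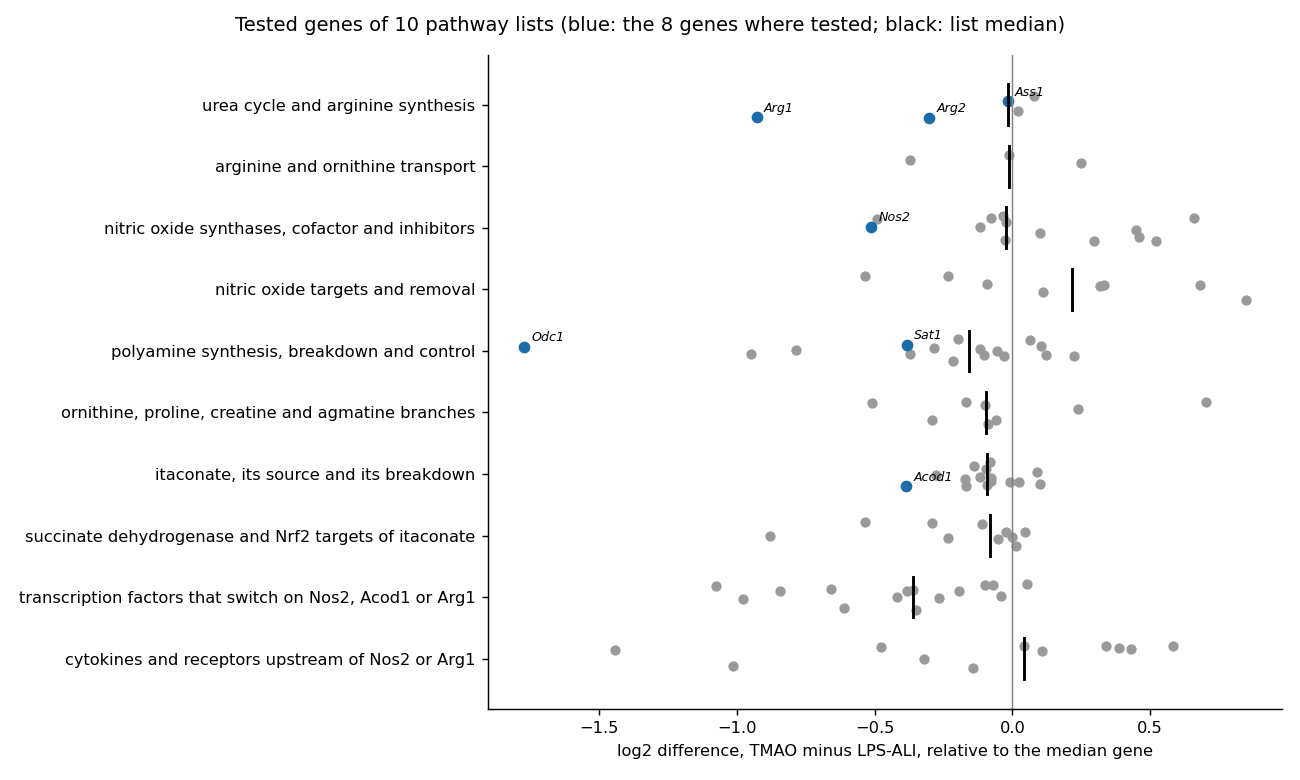
Log2 difference, TMAO minus LPS-ALI, relative to the median tested gene, for each tested gene of the 10 pathway lists (points, blue for those of the 8 genes) with the list median (bar). The transcription factor list has the lowest median, at -0.36, and the list of nitric oxide targets the highest, at 0.21.

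Counts of a list include those of the 8 genes that belong to it. Apart from the 8 genes, Nos3, Il4 and Il13, genes named from a list had its smallest unadjusted limma p. Their permutation p and any separation of their groups therefore come from the same values that chose them. On the supply side of arginine, 5 of the 8 genes of the urea cycle and arginine synthesis were tested, and all lay below 0 with a median of -0.02 relative to the median gene. Asl, which releases arginine in the step after Ass1, had 4.94, 6.82, 6.91, 7.59 and 1.33 FPKM in TMAO lungs and 3.21, 5.50, 7.25 and 7.31 FPKM in LPS-ALI lungs, with overlap, and its sign turned without TMAO replicate 5 (0.19). Slc25a15, the mitochondrial ornithine carrier, averaged 2.10 ± 0.725 FPKM in TMAO lungs and 2.25 ± 0.390 FPKM in LPS-ALI lungs. Among 7 arginine and ornithine transporters 3 were tested, with 2 below 0. Slc7a6, which exchanges arginine for neutral amino acids, averaged 1.66 ± 0.527 FPKM in TMAO lungs and 2.00 ± 0.560 FPKM in LPS-ALI lungs. Slc3a2, the heavy chain that brings several amino acid transporters to the cell surface, averaged 39.0 ± 19.0 FPKM in TMAO lungs and 53.4 ± 14.4 FPKM in LPS-ALI lungs, within the spread.

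Among the nitric oxide synthases with their cofactor and inhibitor genes, 13 of 15 were tested and 8 lay below 0, with a median of -0.02 relative to the median gene. Gch1, which makes the tetrahydrobiopterin that nitric oxide synthases need, had 5.88, 5.89, 9.81, 9.46 and 2.42 FPKM in TMAO lungs and 9.69, 9.77, 8.60 and 13.57 FPKM in LPS-ALI lungs. Its groups overlapped through TMAO replicates 3 and 4, with a relative difference of -0.49 and an exact permutation p of 0.0952. Ddah2, of the enzyme family that removes methylarginine inhibitors of these synthases, had the other direction, with 51.8 ± 20.1 FPKM in TMAO lungs and 37.1 ± 16.0 FPKM in LPS-ALI lungs, an exact permutation p of 0.294, and a log2 difference of -0.05 without the X-coded LPS-ALI libraries. Nos3, the endothelial synthase, averaged 2.30 ± 1.41 FPKM in TMAO lungs and 2.81 ± 1.98 FPKM in LPS-ALI lungs. Of the 8 nitric oxide target and removal genes 4 lay below 0. Gucy1a1, a subunit of the cyclase that nitric oxide activates, averaged 11.2 ± 7.22 FPKM in TMAO lungs and 6.59 ± 4.63 FPKM in LPS-ALI lungs, and its sign turned without the X-coded LPS-ALI libraries (-0.18). Txnrd1, a thioredoxin reductase, averaged 13.8 ± 6.03 FPKM in TMAO lungs and 26.9 ± 25.4 FPKM in LPS-ALI lungs, the spread of which came from LPS-ALI replicate 4 at 64.97 FPKM.

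In the polyamine list, 15 of 16 tested genes, Odc1 and Sat1 included, lay below 0 and 12 below the median gene, with a median of -0.16 relative to it. Of all tested genes 72.1% lay below 0. Without TMAO replicate 5, 12 of the 16 lay below 0, and without both it and LPS-ALI replicate 4 only 8 did. In both settings 12 lay below the median gene. Srm, the spermidine synthase that uses the product of Odc1, had 3.44, 7.34, 10.26, 8.85 and 4.11 FPKM in TMAO lungs and 18.11, 15.94, 10.46 and 16.10 FPKM in LPS-ALI lungs. Every TMAO lung was below every LPS-ALI lung, with TMAO replicate 3 and LPS-ALI replicate 3 nearly touching. The log2 difference was -1.12 ± 0.38 (SE), or -0.95 relative to the median gene, with an exact permutation p of 0.0159 and an adjusted limma p of 0.998. Leaving out LPS-ALI replicate 1 gave an exact permutation p of 0.0536, and leaving out any other single library gave 0.0286 or 0.0357. Smox, the spermine oxidase, had 14.73, 18.66, 10.74, 22.27 and 7.66 FPKM in TMAO lungs and 20.11, 21.20, 12.33 and 110.67 FPKM in LPS-ALI lungs. As with Odc1 and Sat1, its highest value was that of LPS-ALI replicate 4. On the branches from ornithine to proline, creatine and agmatine, 6 of 8 tested genes lay below 0. Aldh18a1, which makes the precursor of proline and ornithine from glutamate, had 1.43, 1.31, 1.28, 1.96 and 2.22 FPKM in TMAO lungs and 2.60, 2.27, 2.55 and 3.03 FPKM in LPS-ALI lungs, without overlap and with an exact permutation p of 0.0159, or 0.0286 to 0.0357 with single libraries left out. After median-of-ratios, quantile or centred scaling its exact permutation p was 0.532 to 0.556. Prodh, which starts the breakdown of proline, had 1.88, 1.41, 1.08 and 1.39 FPKM in TMAO replicates 1 to 4, was listed at 0 in TMAO replicate 5, and had 2.67, 1.37, 1.98 and 3.33 FPKM in LPS-ALI lungs, with overlap.

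For itaconate, its source and its breakdown, all 15 tested genes lay below 0 and 12 below the median gene, with a median of -0.09 relative to it. Without TMAO replicate 5 only 7 of these 15 lay below 0 and 8 below the median gene. Suclg2, a subunit of a succinyl-CoA ligase, averaged 6.48 ± 2.87 FPKM in TMAO lungs and 8.00 ± 1.46 FPKM in LPS-ALI lungs, within the spread between mice. In the list of succinate dehydrogenase and Nrf2 targets all 10 tested genes lay below 0 and 8 below the median gene. Their median was -0.08 relative to it. Without TMAO replicate 5, 6 of the 10 lay below 0. Without both that library and LPS-ALI replicate 4, only 1 lay below 0 and 5 below the median gene. Hmox1, a haem-degrading Nrf2 target, had 20.45, 24.73, 19.03, 27.92 and 6.48 FPKM in TMAO lungs and 29.82, 23.75, 35.48 and 82.47 FPKM in LPS-ALI lungs. The groups overlapped through LPS-ALI replicate 2, and the erythroid markers were also highest in LPS-ALI replicate 4, a link that was not tested.

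The transcription factors known to switch on Nos2, Acod1 or Arg1 lay lowest of the 10 lists. All 15 were tested, 15 lay below 0 and 14 below the median gene, with a median of -0.36 relative to it, and 4 had an unadjusted p under 0.05 and were lower, against 2.93% of all tested genes. Without LPS-ALI replicate 4, 1 had such a p and the median was -0.17 relative to the median gene. It was -0.01, with 9 of 15 below the median gene, without both that library and TMAO replicate 5. Hif1a, the hypoxia factor that also drives Nos2, had 12.37, 15.48, 19.04, 22.60 and 3.79 FPKM in TMAO lungs and 24.76, 28.49, 23.92 and 59.21 FPKM in LPS-ALI lungs. Its groups did not overlap, with a relative difference of -1.08, an exact permutation p of 0.0159 and an adjusted limma p of 0.998. Without any 1 of the LPS-ALI lungs the exact permutation p was 0.0536 to 0.107. Cebpd, an LPS-induced factor, averaged 48.2 ± 24.4 FPKM in TMAO lungs and 89.5 ± 12.5 FPKM in LPS-ALI lungs, with overlap through TMAO replicate 4. Among the cytokines and receptors upstream of Nos2 or Arg1, 11 of 15 were tested and 7 lay below 0. Il6 had 0.24, 0.72, 1.78 and 0.57 FPKM in TMAO replicates 1 to 4, was listed at 0 in TMAO replicate 5, and had 1.30, 3.76, 4.80 and 7.23 FPKM in LPS-ALI lungs. Its groups overlapped through TMAO replicate 3, and its adjusted limma p was 0.998. Il10 had 0.74, 2.54, 0.93, 4.64 and 0.33 FPKM in TMAO lungs and 8.18, 1.92, 1.88 and 11.52 FPKM in LPS-ALI lungs, with overlap. The type 2 cytokines Il4 and Il13, which induce Arg1 in macrophages, were listed at 0 in all 9 libraries.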

How the data were processed

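RNA was sequenced from 9 lungs. Per the labels' protocols, total RNA was depleted of ribosomal RNA and made into NEBNext libraries. The submitters' processing notes name fastp, HISAT2, SAMtools, featureCounts and mm10. No source used here gives versions, the annotation, the strand setting or gene lengths. The authors deposited FPKM per gene, with 1 column per library, so no count model was used.

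Here log2(FPKM + 1) was tested with limma 3.58.1 in R 4.3.3 (mean-variance trend, two-sided, Benjamini-Hochberg, threshold 0.05) on the genes that reached an FPKM of 1 in 4 or more libraries. For single genes an exact permutation test (two-sided) was run over the 9 libraries. Positions come from GENCODE M21 on GRCm38, the assembly also called mm10, which matched 52125 of 52381 gene IDs. Near-identical copies were sought with BLAST 2.17.0 (at least 95% identity over 200 bases), and overlapping genes in the annotation.

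The genes and pathway lists were chosen with earlier results of these data known. Besides the 8 genes, the text names the 2 genes of each list with the smallest unadjusted limma p, the 3 genes most like each of the 8 in pattern or the first of these, and genes added after their values were seen (Nos3, Il4, Il13). The result of 1 gene that this rule takes is not reported here.

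Depth was estimated from low values. For genes holding 1 to 4 fragments, 68.3% to 73.3% of values fell within 3% of a whole multiple of 1 step per library after division by gene length, where 15.0% would by even spread. Estimated fragments rest on these steps, on annotated lengths and on counting error only. Alternatives were pseudocounts of 0.1 and 0.5, other filters, scalings and limma settings, the mouse number as a block, and leaving out libraries. Python 3.11.15 with pandas 2.3.3 and matplotlib 3.10.9 drew the figures and tables.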

Additional observations from a re-analysis of the deposited data

Results flagged for a closer look

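Of 62 groups of values examined, 8 held a library whose gap to its nearest neighbour, as a share of the group's range, passed Dixon's 95% critical value. In independent groups of normally spread values chance does so in about 1 in 20, and these groups share libraries. In LPS-ALI replicate 4 these were Odc1 at 1030.4 FPKM, Sat1 at 543.8 FPKM, Arg1 at 13.70 FPKM, Smox at 110.67 FPKM, Hif1a at 59.21 FPKM and Txnrd1, a thioredoxin reductase, at 64.97 FPKM. Each of these 6 was the highest value of its group. In TMAO replicate 5 they were Slc7a6, an amino acid transporter, at 0.72 FPKM, against 1.84 to 1.93 FPKM in the other TMAO lungs, and the log2 ratio of Odc1 over Sat1, at -3.14. TMAO replicate 5 was the shallowest library.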

How the results depend on the processing

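Every alternative left the adjusted limma p of the 7 tested genes at 0.602 or more. Acod1, Nos2, Arg1, Arg2, Slc7a2 and Odc1 kept a negative difference in all alternatives that gave them a value. The exact permutation p of Odc1 was under 0.05 in 11 of 23 alternatives and that of Slc7a2 in 13 of 22. Leaving out single libraries moved Ass1 over -0.40 to 0.21. Ass1 was 0.027 under median-of-ratios scaling, 0.048 under quantile scaling, 0.095 without the X-coded LPS-ALI libraries and 0.38 without both LPS-ALI replicate 4 and TMAO replicate 5. For these last 2 settings Sat1 was 0.0035 and 0.042, and Slc7a6 was 0.0075 and 0.077, and their lowest differences with libraries left out were -0.75 and -0.29. Asl was 0.025 when centred, 0.18 without the X-coded libraries and 0.30 without both outlying libraries, and spanned -0.36 to 0.19 over single libraries left out. Slc25a15 was 0.060 under median-of-ratios, 0.083 under quantile and 0.083 under centred scaling, 0.092 without both outlying libraries, and spanned -0.21 to 0.026. Ddah2 was -0.051 and Gucy1a1 -0.18 without the X-coded libraries, and Txnrd1 was 0.15 without both outlying ones and -0.92 at its lowest, without LPS-ALI replicate 3. The cause of these turns was not tested. Genes past the threshold numbered 0 to 3 with single libraries left out: 3 without TMAO replicate 4 and 1 without LPS-ALI replicate 3, none of them on the lists. Genes at an unadjusted p under 0.05 split into 50 higher and 346 lower in TMAO lungs as deposited, 363 and 428 under median-of-ratios, 441 and 450 under quantile, 414 and 438 under centred scaling, and 504 and 345 without TMAO replicate 5.

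The labels state no pairing of mice of the same number. Deviations of same-numbered libraries correlated at -0.13 to 0.06, within the -0.23 to 0.29 of libraries with different numbers. With so few libraries this cannot settle whether mice were paired. A fit with the number as a replicate block drops TMAO replicate 5, which has no partner, and passed 0 genes. With the block Odc1 was -1.56 (limma adjusted p = 0.760), Asl was 0.19 and Slc25a15 was 0.026. Depth limits Arg1, Nos2 and Slc7a2 most, at 0, 13.5 and 11.5 estimated fragments in TMAO replicate 5.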
